A study of Sus scrofa with 24 samples.

Results

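Liver of pigs without testes was compared between 2 anabolic steroid preparations, with no control library in the comparison. Of the 24 liver libraries, 11 were used, chosen by their labels alone. Sustanon had been given to 3 castrated boars and 3 sows, and Myodin to 2 castrated boars and 3 sows, with 1 library per animal and no measured value in the choice. Sustanon is a mixture of testosterone esters, and Myodin an ester of nandrolone. The doses were 4 mg/kg body weight of a 250 mg/ml product for Sustanon and 5 mg/kg of a 25 mg/ml product for Myodin. All 11 animals had 5 intramuscular injections at intervals of 4 days from day 94 and were slaughtered 4 days after the last. Each group had also had a single injection of its product in an earlier phase of the trial, the Myodin one at a lower dose. They were hybrids of Large White, Landrace and Duroc. Animals of different treatment were kept in separate pens, and injected volume followed from the products (0.016 ml/kg of Sustanon and 0.2 ml/kg of Myodin). Steroid, ester, dose, volume and pen therefore cannot be told apart here.

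Testosterone and nandrolone both act through nuclear steroid receptors, which work as transcription factors once a hormone occupies them. Nandrolone is testosterone without the angular methyl group between its first rings. The enzyme 5α-reductase makes a stronger androgen from testosterone and a weaker one from nandrolone, and aromatase turns testosterone readily into oestradiol. The liver carries receptors for these hormones, breaks them down by oxidation, reduction and conjugation, and differs between the sexes in many enzymes of drug, lipid and steroid metabolism. Castrated boars and sows have little testicular androgen of their own, or none.

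Libraries held 9774194 to 12251758 counts with Sustanon (median 10857171) and 9628538 to 14017276 with Myodin (median 11717175). Hepatocyte markers summed to between 151300 and 246400 CPM (counts per 1000000 in the library, scaled by the TMM factors of edgeR) in the 11 libraries, so the tissue label fitted. The Y-linked gene EIF1AY had 379 to 564 counts in the 5 castrated boars and 0 to 3 in the 6 sows, as labelled. This was not so among the 6 untreated castrated boars and sows whose levels are given below as background. The library labelled castrated boar untreated 15 had 1 count of EIF1AY, and those labelled sow untreated 16 and sow untreated 18 had 476 and 434. Counts and medians over the DEGs against untreated animals are therefore given with and without these 3 libraries, and ranges of single genes are over all 6 untreated animals unless stated. The untreated animals were kept in a separate room, so room and treatment cannot be told apart in values set against them.

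In the principal component plot of the 11 libraries, the first component (27.8% of the variance) placed the 5 Myodin libraries together at 12.8 to 20.02. Castrated boar Sustanon 2 and the 3 Sustanon sows lay at -18.4 to -32.3. Castrated boars Sustanon 1 and Sustanon 3 lay between, at 4.47 and 8.08, and all 5 castrated boars had higher values than the 6 sows on the second component (21%).

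**Figure D1:**
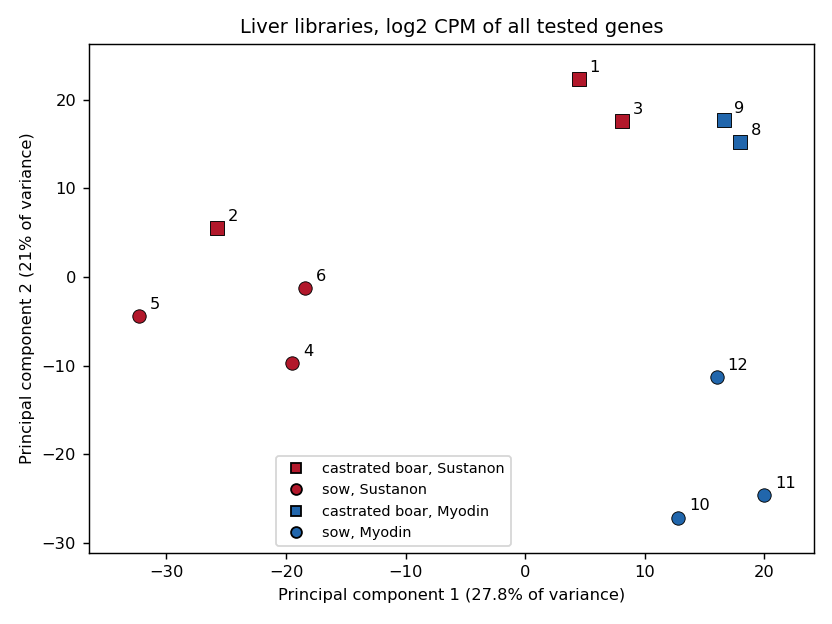
Principal component scores of the 11 liver libraries, computed from log2 CPM of all tested genes. Each point is 1 animal (numbers as in the labels), squares are castrated boars, circles are sows, red is Sustanon and blue is Myodin. The 5 Myodin libraries lie at 12.8 to 20.02 on the horizontal axis, and castrated boars Sustanon 1 and Sustanon 3 lie between them and the other 4 Sustanon libraries.

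Across all genes, 68 differed between Sustanon and Myodin, 46 of them higher with Sustanon and 22 lower. They were 0.823% of the 8263 genes tested (0.557% higher and 0.266% lower). A gene counted as a differentially expressed gene (DEG) at a p under 0.05 from the quasi-likelihood test of edgeR, adjusted over all tested genes after Benjamini and Hochberg, together with a log2 fold change of at least 1 in size. By the adjusted p alone, 137 genes (1.66%) passed. The higher genes included a transcription factor and a co-chaperone of steroid signalling (ZBTB16, FKBP5), drug-oxidizing enzymes (CYP2B6B, FMO1), oestrogen sulfotransferase (SULT1E1), and genes of cholesterol and fatty acid handling (SOAT2, ABCA1, CROT). The lower genes included a mitochondrial thiolase (ACAA2), neutral amino acid carriers (SLC1A4, SLC7A8) and a factor for making hydrogen peroxide (DUOXA2). Of the 46 higher DEGs, 35 had all 6 Sustanon libraries above all 5 Myodin libraries, as had 1.23% of all tested genes. Of the 22 lower DEGs, 19 had all 6 below, as had 1.82% of all tested genes (3.05% in either direction). The number of DEGs depended on single animals. It was 11 without sow Myodin 11, 13 without sow Myodin 12 and 17 without sow Myodin 10, and 125 without castrated boar Sustanon 3. Of the 38 DEGs named here, 34 lost the call in at least 1 of the 11 fits that each left out 1 library. The fit without sow Myodin 12 kept 4 of the 38, that without sow Myodin 11 kept 5, that without sow Myodin 10 kept 7, that without sow Sustanon 6 kept 14 and that without castrated boar Sustanon 2 kept 15. DUOXA2, ZBTB16, CYP2B6B and SLC1A4 kept the call in all 11, and 16 of the 38 kept it in fewer than 6 (for ENSSSCG00000050374, in 2 of the 6 fits that tested it).

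**Figure D2:**
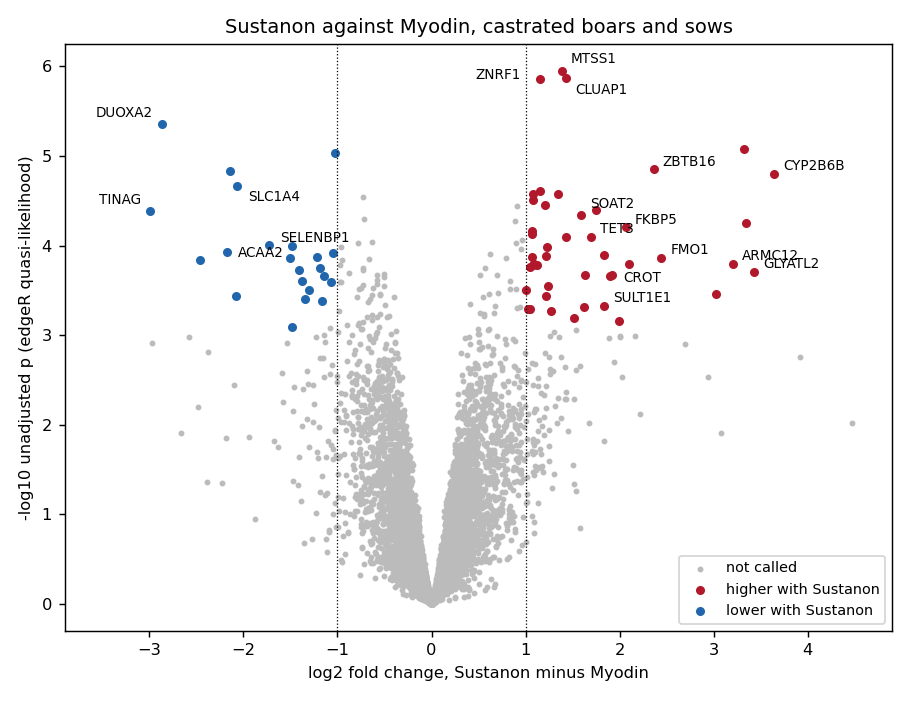
Log2 fold change of Sustanon against Myodin for each of the 8263 tested genes (horizontal axis) and -log10 of its unadjusted p from edgeR (vertical axis). Red points are the 46 DEGs higher with Sustanon, blue points the 22 lower, grey points all others, and dotted lines mark a log2 fold change of 1 in either direction.

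Genes of steroid receptor signalling were described first. ZBTB16 (chr9:41639536-41839254, Sscrofa11.1, as are all positions here) encodes a zinc finger transcription factor, and FKBP5 (chr7:31441764-31550704) a co-chaperone that holds steroid receptors with HSP90. In many tissues both respond to glucocorticoids and androgens. ZBTB16 ranged from 59.5 to 94.4 CPM with Sustanon (median 72.6). With Myodin it was at 10.4 and 30.7 CPM in castrated boars 8 and 9 and at 12.8, 4.96 and 14.1 CPM in sows 10, 11 and 12. All 6 Sustanon animals lay above all 5 Myodin animals, with a log2 fold change of 2.36 ± 0.35 (SE, edgeR adjusted p = 0.0146). FKBP5 ranged from 237 to 567 CPM with Sustanon (median 412), and with Myodin it was at 121 and 159 CPM in the castrated boars and 60.6, 33.1 and 113 CPM in the sows. The groups again did not overlap, and the log2 fold change of FKBP5 was 2.06 ± 0.36 (SE, edgeR adjusted p = 0.0216). In the 6 untreated animals, ZBTB16 ranged from 16.8 to 93.1 CPM (median 33.8) and FKBP5 from 122 to 307 CPM (median 173), so that untreated levels overlapped both the Myodin and the Sustanon range. Without the 3 libraries named above, FKBP5 reached 232 CPM in untreated animals, below all Sustanon animals, and ZBTB16 reached 61.1 CPM and still overlapped them. Of the 18 listed receptors, co-factors and known responders of steroid receptors found in the files, 16 were tested, and these were the only 2 DEGs (0.823% of all tested genes were DEGs). TSC22D3, another well-known glucocorticoid-induced gene, had a log2 fold change of 1.29 (adjusted p = 0.081) and did not pass the test. The call of FKBP5 was lost without sow Myodin 10 or sow Myodin 12 (largest adjusted p by edgeR 0.0599).

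CYP2B6B and FMO1, enzymes that oxidize drugs, were higher with Sustanon. CYP2B6B, a cytochrome P450 of the CYP2B subfamily, ranged from 24.2 to 245 CPM with Sustanon (median 140). With Myodin it stood at 4.89 and 12.8 CPM in castrated boars and 6.14, 11.8 and 19.6 CPM in sows. There was no overlap, and the log2 fold change of 3.64 ± 0.55 (SE, edgeR adjusted p = 0.0146) was the largest among the DEGs. FMO1 (chr9:63860957-63895086), a flavin-containing monooxygenase that oxidizes nitrogen and sulfur in drugs, ranged from 781 to 8192 CPM with Sustanon (median 3939). With Myodin its levels were close together, at 799 and 669 CPM in castrated boars and 708, 820 and 646 CPM in sows. One Sustanon animal, castrated boar 3 at 781 CPM, lay inside the Myodin range, and the other 5 lay at 1767 CPM or more. The log2 fold change of FMO1 was 2.44 ± 0.46 (SE, edgeR adjusted p = 0.0241). FMO5, of the same family, had a value of -0.92 (adjusted p = 0.096) and did not pass. AHR (chr9:86511866-86555950), the aryl hydrocarbon receptor that switches on enzymes of the CYP1 family, ranged from 91.4 to 188 CPM with Sustanon (median 134) and from 40.3 to 90.7 CPM with Myodin (median 53.5). It was the only DEG among 18 tested P450 enzymes and their regulators on the list (0.823% of all tested genes), at a log2 fold change of 1.22 ± 0.22 (SE, edgeR adjusted p = 0.0241), and CYP2B6B was not on that list. AHR was a DEG in 8 of the 11 fits without 1 library, failing without each Myodin sow, and FMO1 in 6, failing also without castrated boar Sustanon 2 and sow Sustanon 6 (largest adjusted p by edgeR 0.0695 and 0.0721). How reads shared by close relatives were counted is not given in the sources used here, so levels of CYP2B6B, FMO1 and the sulfotransferases below are uncertain.

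Among conjugation enzymes, 2 DEGs of 19 tested were higher with Sustanon and 1 was lower, against 0.557% and 0.266% of all tested genes. SULT1E1 (chr8:66811536-66838181), which inactivates oestrogens by adding sulfate, ranged from 481 to 1394 CPM with Sustanon (median 719). With Myodin it was at 151 and 456 CPM in castrated boars and at 189, 85.0 and 276 CPM in sows, all below the Sustanon range. Its log2 fold change was 1.83 ± 0.40 (SE, edgeR adjusted p = 0.0354). SULT1B1, a sulfotransferase of thyroid hormones and phenols, went the other way. It ranged from 24.6 to 76.2 CPM with Sustanon (median 37.6) and stood at 87.7 and 101 CPM in castrated boars and 117, 152 and 91.9 CPM in sows with Myodin, a log2 fold change of -1.30 ± 0.27 (SE, edgeR adjusted p = 0.0288). GLYATL2 (chr2:12280093-12337509), which joins fatty acids to glycine, was the third DEG. Its levels were low, at 1.497 to 13.7 CPM with Sustanon (median 4.803) and 0.712, 0.567, 0.647, 0.595 and 0 CPM with Myodin, where 0 counts in sow 12 allow up to 0.254 CPM. The log2 fold change of GLYATL2 was 3.43 ± 0.67 (SE, edgeR adjusted p = 0.0251). With 1 library left out, GLYATL2 was a DEG in 7 of 11 fits (edgeR adjusted p 0.00989 to 0.0721), SULT1B1 in 4 (0.00635 to 0.0956) and SULT1E1 in 3 (0.0196 to 0.0933). SULT1E1 kept the call without castrated boar Sustanon 1, castrated boar Sustanon 3 or castrated boar Myodin 9, and SULT1B1 without those 3 or castrated boar Myodin 8. GLYATL2 lost it without sow Sustanon 6 or any 1 Myodin sow.

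Of the dehydrogenases that act on steroids, 13 were tested and none was a DEG by edgeR. At an unadjusted p under 0.05, 5 were higher and 4 lower, against 9.85% and 9.45% of all tested genes. HSD17B2, which oxidizes testosterone and oestradiol to weaker hormones, had the most negative value at -2.58 (adjusted p = 0.053). DHRS7 (chr1:189153579-189170745), a reductase of steroids and retinoids, was the only DEG of the 22 tested carbonyl, polyol and retinol reductases (0.823% of all tested genes). It ranged from 45.8 to 95.3 CPM with Sustanon (median 65.9) and from 21.5 to 37.1 CPM with Myodin (median 31.4), with a log2 fold change of 1.12 ± 0.21 (SE, edgeR adjusted p = 0.0245). DHRS7 was a DEG in 5 of 11 fits without 1 library (edgeR adjusted p 0.00989 to 0.0721), and lost the call without castrated boar Sustanon 2, sow Sustanon 5, sow Sustanon 6 or any 1 Myodin sow. SORD, sorbitol dehydrogenase, passed the adjusted p (0.026) with a log2 fold change of 0.83, under the size needed for a DEG.

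Among genes of fatty acid oxidation, 2 DEGs of 32 tested were higher with Sustanon and 1 was lower, against 0.557% and 0.266% of all tested genes. CROT (chr9:93263606-93308150), which moves medium-chain acyl groups out of peroxisomes as carnitine esters, ranged from 351 to 1410 CPM with Sustanon (median 878). With Myodin it was at 207 and 243 CPM in castrated boars and 392, 176 and 170 CPM in sows, and only castrated boar Sustanon 3 (351 CPM) lay inside that range. The log2 fold change of CROT was 1.92 ± 0.38 (SE, edgeR adjusted p = 0.0251). ACOT12 (chr2:89855159-89905105), the cytosolic thioesterase that splits acetyl-CoA, ranged from 164 to 336 CPM with Sustanon (median 236) and from 34.8 to 140 CPM with Myodin (median 83.9), a log2 fold change of 1.63 ± 0.32 (SE, edgeR adjusted p = 0.0251). ACAA2 (chr1:99284467-99310759), the mitochondrial thiolase of the last step of β-oxidation, was lower. It ranged from 35.7 to 280 CPM with Sustanon (median 175), and with Myodin it was at 530 and 411 CPM in castrated boars and 772, 846 and 1111 CPM in sows. No Sustanon animal reached the Myodin range, and the log2 fold change was -2.18 ± 0.40 (SE, edgeR adjusted p = 0.0241). With 1 library left out, ACAA2 (edgeR adjusted p 0.017 to 0.0721) and ACOT12 (0.0171 to 0.0695) were DEGs in 6 of 11 fits, and CROT (0.00656 to 0.079) in 5. All 3 lost the call without castrated boar Sustanon 2, sow Myodin 11 or sow Myodin 12. ACAA2 also lost it without sow Sustanon 6 or sow Myodin 10, ACOT12 without sow Sustanon 5 or sow Myodin 10, and CROT without any 1 Sustanon sow.

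The 3 DEGs of cholesterol and lipoprotein handling were all higher with Sustanon. SOAT2 (chr5:18358941-18371262), which makes cholesteryl esters for storage and secretion, ranged from 70.2 to 201 CPM with Sustanon (median 96.3). With Myodin it was at 46.0 and 40.9 CPM in castrated boars and 31.5, 34.8 and 28.5 CPM in sows, and in untreated animals between 12.4 and 25.9 CPM. The 3 ranges did not touch, and the log2 fold change of Sustanon against Myodin was 1.59 ± 0.27 (SE, edgeR adjusted p = 0.0190). ABCA1 (chr1:246144277-246278492), which loads cholesterol onto nascent HDL, ranged from 114 to 194 CPM with Sustanon (median 142) and from 50.8 to 105 CPM with Myodin (median 67.6), a log2 fold change of 1.09 ± 0.21 (SE, edgeR adjusted p = 0.0245). LIPG (chr1:99081940-99110671), endothelial lipase, which cleaves HDL phospholipids, ranged from 238 to 616 CPM against 94.2 to 224 CPM, and its log2 fold change was 1.27 ± 0.28 (SE, edgeR adjusted p = 0.0381). Of 19 tested genes of cholesterol synthesis and uptake, SOAT2 was the only DEG, and of 20 lipoprotein genes, ABCA1 and LIPG (0.823% of all tested genes were DEGs). STARD4, a cholesterol carrier, passed the adjusted p (0.037) with a log2 fold change of 0.91, under the size needed for a DEG. With 1 library left out, SOAT2 was a DEG in 8 of 11 fits (edgeR adjusted p 0.00635 to 0.0599), ABCA1 in 5 (0.0119 to 0.0721) and LIPG in 3 (0.0156 to 0.0974). SOAT2 lost the call without any 1 Myodin sow, ABCA1 also without castrated boar Sustanon 2, sow Sustanon 5 or sow Sustanon 6, and LIPG kept it without castrated boar Sustanon 1, castrated boar Sustanon 3 or castrated boar Myodin 8.

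SLC10A1 (chr7:93400037-93421989), the main sodium-dependent uptake carrier of bile acids, ranged from 465 to 652 CPM with Sustanon (median 636). With Myodin it was at 257 and 351 CPM in castrated boars and 347, 203 and 246 CPM in sows, so the groups did not overlap. It was the only DEG of 17 tested bile acid genes (0.823% of all tested genes), with a log2 fold change of 1.07 ± 0.17 (SE, edgeR adjusted p = 0.0169). NR1H4, the nuclear receptor for bile acids, had a value of 0.64 (adjusted p = 0.067). The call of SLC10A1 was lost without sow Myodin 11 or sow Myodin 12 (largest adjusted p by edgeR 0.053).

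Triglyceride genes gave 1 DEG among 29 tested, against 0.823% of all tested genes. LPIN2 (chr6:103625725-103728151), a phosphatidate phosphatase on the way to triglyceride, ranged from 256 to 876 CPM with Sustanon (median 680.4) and from 209 to 315 CPM with Myodin (median 293), with castrated boar Sustanon 3 at 256 CPM inside the Myodin range. Its log2 fold change was 1.22 ± 0.26 (SE, edgeR adjusted p = 0.0304). With 1 library left out LPIN2 was a DEG in 2 of 11 fits (edgeR adjusted p 0.0012 to 0.0972), those without castrated boar Sustanon 1 and castrated boar Sustanon 3. All 5 Myodin animals lay below all 6 untreated animals (346 to 775 CPM), and the Sustanon range overlapped the untreated one. At an unadjusted p under 0.05, 11 of the 29 genes were lower and 3 higher, against 9.45% and 9.85% of all tested genes, with the acyltransferases DGAT2 (-1.14, adjusted p = 0.053) and DGAT1 (-0.66, adjusted p = 0.053) on the low side and THRSP, a regulator of lipogenesis (2.94, adjusted p = 0.085), on the high side.

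Among amino acid genes, 2 carriers and 1 gene of breakdown were DEGs. SLC1A4 (chr3:76938102-76970519), a carrier of alanine, serine and cysteine, ranged from 6.09 to 11.6 CPM with Sustanon (median 9.23). With Myodin it was at 17.4 and 29.1 CPM in castrated boars and 43.1, 71.8 and 26.7 CPM in sows, all above the Sustanon range. The log2 fold change was -2.06 ± 0.32 (SE, edgeR adjusted p = 0.0169), and untreated animals, at 15.8 to 25.1 CPM, lay above all Sustanon animals and overlapped castrated boar Myodin 8. SLC7A8 (chr7:75854700-75921931), an exchanger of large neutral amino acids, ranged from 2.39 to 6.76 CPM with Sustanon (median 4.28) and stood at 9.08, 7.94, 17.1, 14.1 and 9.46 CPM with Myodin. All 5 Myodin values lay above the untreated range of 3.71 to 7.83 CPM, which the Sustanon range overlapped, and the log2 fold change of Sustanon against Myodin was -1.34 ± 0.28 (SE, edgeR adjusted p = 0.0314). These were the 2 DEGs of 19 tested carriers (0.823% of all tested genes were DEGs). BCKDHA (chr6:49381995-49398745), a subunit of the complex that breaks down branched-chain amino acids, was the only DEG of 34 genes of the urea cycle and amino acid breakdown. It ranged from 320 to 844 CPM with Sustanon (median 626) and from 238 to 366 CPM with Myodin (median 290), a log2 fold change of 1.08 ± 0.21 (SE, edgeR adjusted p = 0.0245). Of those 34 genes, 8 were higher and 0 lower at an unadjusted p under 0.05 (9.85% and 9.45% of all tested genes), among them TDO2 of tryptophan breakdown (1.13, adjusted p = 0.090) and OTC of the urea cycle (0.67, adjusted p = 0.12). SLC7A8 (edgeR adjusted p 0.022 to 0.0975) and BCKDHA (0.00162 to 0.0721) were DEGs in 5 of 11 fits without 1 library, and both lost the call without castrated boar Sustanon 2, sow Sustanon 5, sow Sustanon 6 or any 1 Myodin sow.

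TET3 (chr3:68918896-69020406), which oxidizes methylated cytosine in DNA, ranged from 80.7 to 282 CPM with Sustanon (median 179). With Myodin it stood at 58.6 and 61.7 CPM in castrated boars and 73.3, 42.4 and 46.0 CPM in sows. The groups were free of overlap, and the log2 fold change was 1.70 ± 0.30 (SE, edgeR adjusted p = 0.0235). The other 15 tested genes of DNA methylation and demethylation held no DEG (0.823% of all tested genes were DEGs). TET3 lost the call without any 1 of the Myodin sows (largest adjusted p by edgeR 0.0721).

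**Figure D3:**
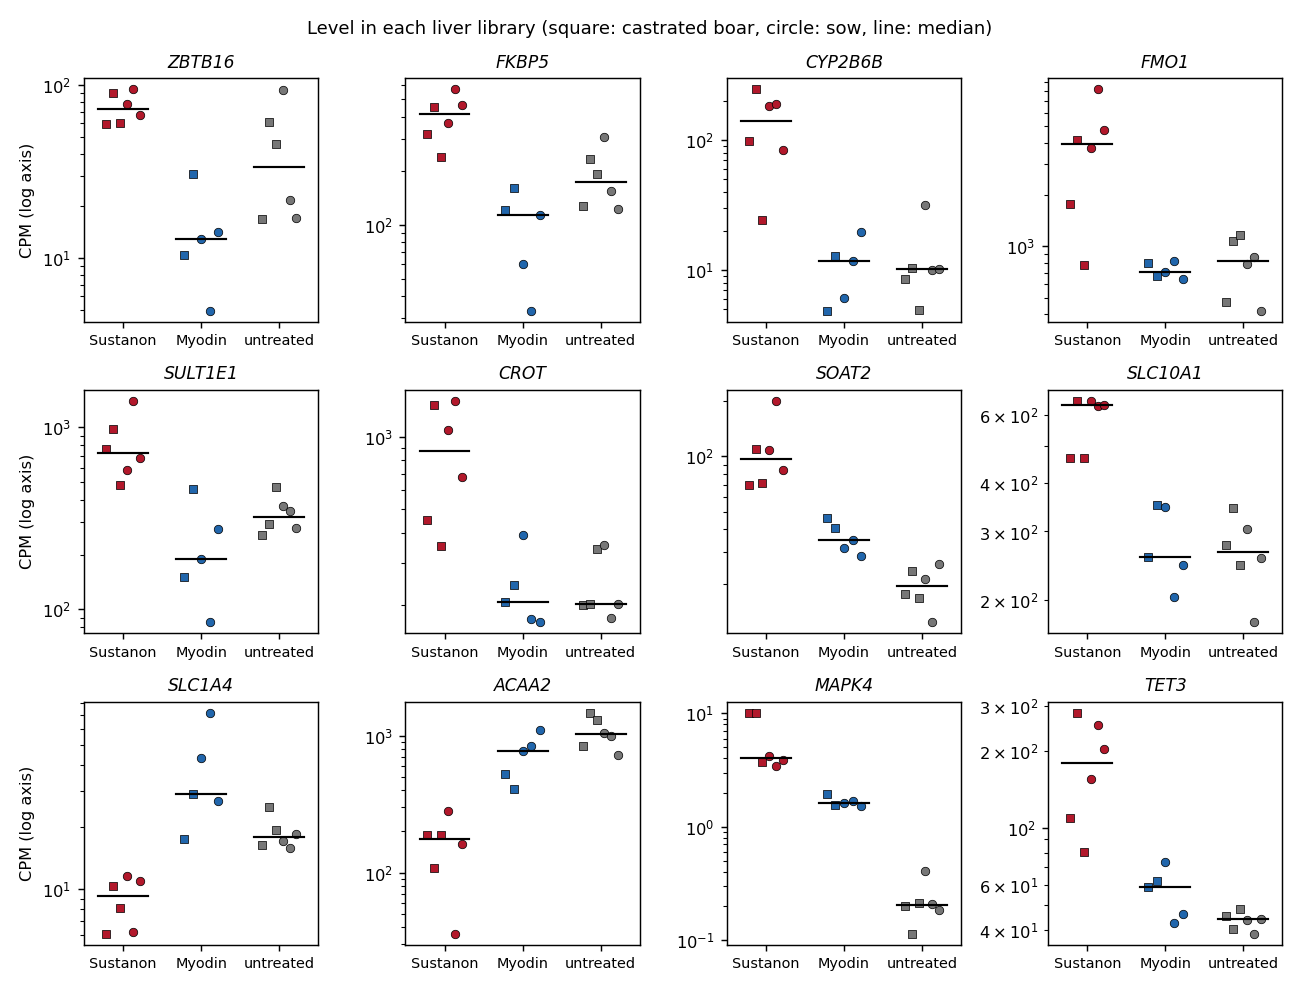
CPM on a log axis for 12 genes in the 6 Sustanon, 5 Myodin and 6 untreated libraries of castrated boars (squares) and sows (circles), with the group median as a line. FMO1 and CROT overlap between Sustanon and Myodin, and the other genes shown do not. SOAT2 and MAPK4 show no overlap between Myodin and untreated either.

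Lower genes that belong to no list above were led by TINAG and DUOXA2. TINAG (chr7:26448612-26522993), a protein of basement membranes, had 0 to 1.62 CPM with Sustanon (median 0.810), and 0 counts in sow 5 allow up to 0.287 CPM. With Myodin it stood at 3.74, 4.04, 6.36, 11.2 and 7.44 CPM, with no overlap and a log2 fold change of -2.99 ± 0.50 (SE, edgeR adjusted p = 0.0180). DUOXA2 (chr1:126616631-126620359), which brings the peroxide-forming oxidase DUOX2 to the membrane, had 0.191 to 0.880 CPM with Sustanon and 3.65, 4.54, 3.56, 9.12 and 2.54 CPM with Myodin. Its log2 fold change was -2.86 ± 0.38 (SE, edgeR adjusted p = 0.00906). SELENBP1 (chr4:97860925-97894007), a selenium-binding protein that oxidizes methanethiol, ranged from 70.3 to 85.0 CPM in 5 Sustanon animals and was at 219 CPM in sow Sustanon 4, while Myodin animals lay between 200 and 445 CPM. Only that sow overlapped the Myodin range, and the log2 fold change was -1.73 ± 0.31 (SE, edgeR adjusted p = 0.0241). The call of TINAG was lost without sow Myodin 11 or sow Myodin 12 (largest adjusted p by edgeR 0.053), and that of SELENBP1 without castrated boar Sustanon 2, sow Sustanon 6 or any 1 Myodin sow (0.0721).

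The other named DEGs on the lower side, all with adjusted p between 0.0241 and 0.0328, were PLCG2 (a phospholipase C of immune signalling, -1.22), RTL4 (derived from a retrotransposon, -1.41), SYTL1 (a vesicle protein, -1.19), TAS1R3 (a subunit of the sweet and umami taste receptors, -1.17) and PEPD (the dipeptidase prolidase, -1.15). Castrated boar Sustanon 3 had 26.7 CPM of PLCG2 against 11.2 to 13.4 CPM in the other 5 Sustanon animals and 25.7 to 41.8 CPM with Myodin. On the higher side were ARMC12 (an armadillo repeat protein known from sperm, log2 fold change 3.21, adjusted p = 0.0245) and TMEM52 (a membrane protein, 2.10, adjusted p = 0.0245). Genes without a symbol were led by ENSSSCG00000021579, which ranged from 208 to 2370 CPM with Sustanon and from 74.1 to 132 CPM with Myodin, a log2 fold change of 3.35 ± 0.57 (SE, edgeR adjusted p = 0.0202). ENSSSCG00000050374 (3.03) was also higher, and ENSSSCG00000032082 (-2.08) and ENSSSCG00000006719 (-1.50) were lower. With 1 library left out, TMEM52 and ENSSSCG00000021579 were DEGs in 8 of 11 fits, failing without each Myodin sow. PLCG2, ARMC12 and ENSSSCG00000006719 were DEGs in 6, failing also without castrated boar Sustanon 2 and sow Sustanon 6. RTL4, SYTL1, PEPD and ENSSSCG00000032082 were DEGs in 5 and TAS1R3 in 4.

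A panel of genes that the study had picked from these same animals to mark testosterone treatment was looked at separately. Being chosen on these samples, it is not independent evidence of its direction. Of 15 panel genes found by symbol, 14 were tested and 5 were DEGs between the steroids (0.823% of all tested genes), namely MAPK4, CACNA1H, ASB4 and GLYATL2 on the higher side and TINAG on the lower. MAPK4 (chr1:100107429-100291594), an atypical MAP kinase, showed 3 separate ranges. It had 3.44 to 10.2 CPM with Sustanon (median 4.05), 1.52 to 1.96 CPM with Myodin (median 1.62) and 0.114 to 0.403 CPM in untreated animals. Its log2 fold change of Sustanon against Myodin was 1.83 ± 0.34 (SE, edgeR adjusted p = 0.0241). CACNA1H (chr3:40637420-40694616), a T-type calcium channel, had 7.23 to 33.9 CPM with Sustanon, whereas Myodin (3.65 to 4.47 CPM) overlapped the untreated range (2.11 to 5.95 CPM), and the log2 fold change was 1.90 ± 0.38 (SE, edgeR adjusted p = 0.0251). ASB4 (chr9:75110367-75337619), an adaptor of ubiquitin ligases, had 5.90 to 24.2 CPM with Sustanon, 1.69 to 7.59 CPM with Myodin and 2.41 to 4.82 CPM in untreated animals, with a log2 fold change of 1.997 ± 0.453 (SE, edgeR adjusted p = 0.0439). With 1 library left out, MAPK4 was a DEG in 8 of 11 fits (edgeR adjusted p 0.0129 to 0.0721), CACNA1H in 7 (0.0156 to 0.0738) and ASB4 in 4 (0.0165 to 0.126). All 3 lost the call without any 1 Myodin sow, CACNA1H and ASB4 also without sow Sustanon 6, and ASB4 further without castrated boar Sustanon 2, sow Sustanon 5 or castrated boar Myodin 8.

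The 9 other tested panel genes were not DEGs between Sustanon and Myodin, which does not show that the steroids act alike on them. THEM5 (chr4:97319579-97358602), a mitochondrial acyl-CoA thioesterase, had 3.54 to 17.8 CPM with Sustanon and 0.623 to 4.75 CPM with Myodin, while untreated animals had 0 to 0.281 CPM. Its log2 fold change was 2.002 with a 95% interval from 0.97 to 3.03 (edgeR adjusted p = 0.0533). PLB1, a phospholipase, had a value of -2.98 (interval -4.54 to -1.41, edgeR adjusted p = 0.0568), and castrated boar Myodin 8 at 0.178 CPM lay far below the other Myodin animals (3.13 to 14.2 CPM). DHRS4, a carbonyl and retinal reductase, had a value of 1.01 (interval 0.30 to 1.72, edgeR adjusted p = 0.121), with sow Sustanon 4 at 483 CPM against 1635 to 2269 CPM in the other 5. Intervals of B3GNT8 (0.32 to 1.18), DHDH (0.25 to 0.97), PPL (0.24 to 1.29) and TERF2 (0.16 to 0.91) also lay above 0. For ITPR3, a calcium channel of the endoplasmic reticulum, the difference was 0.44 with an interval from -0.00032 to 0.89 (edgeR adjusted p = 0.259). For the potassium channel KCNB2 the difference was 0.27 with an interval from -0.30 to 0.84 (edgeR adjusted p = 0.618), and all Sustanon (3.17 to 8.26 CPM) and all Myodin animals (3.37 to 5.32 CPM) lay above the untreated range (1.02 to 2.62 CPM). TERF2, a telomere-binding protein, likewise had all Myodin (71.1 to 109 CPM) and all Sustanon animals (89.3 to 159 CPM) above untreated (46.7 to 57.3 CPM). DUOX1 did not pass the filter on low counts, with 0 to 6 counts with Sustanon, 10 to 36 with Myodin and 24 to 64 in untreated animals. In the fit without that filter its log2 fold change was -2.52 (edgeR adjusted p = 0.0444).

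Among larger lists, several had no DEG by edgeR. The 42 tested genes of oxidative phosphorylation had 39 negative values (median -0.15), with 8 lower and 0 higher at an unadjusted p under 0.05, and the 38 ribosomal protein genes had 31 negative values (median -0.08), with 1 lower and 0 higher. Over all tested genes the median was -0.0024. Of 29 genes of carbohydrate metabolism 5 were lower and 0 higher by that p, among them KHK, which starts fructose breakdown (-0.40, adjusted p = 0.11). Of 14 clock genes 5 were higher and 2 lower, and CRY2, a repressor of the clock, passed the adjusted p (0.026) with a log2 fold change of -0.96. Of 35 interferon and antigen-processing genes 0 were higher and 2 lower, of 35 genes of protein folding and stress 6 were higher and 5 lower, of 25 coagulation and complement genes 2 were higher and 3 lower, and of 10 genes of growth hormone and IGF signalling 2 were higher and 0 lower. Over all tested genes 9.85% were higher and 9.45% lower by that p. In all, 24 DEGs belonged to at least 1 list.

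**Figure D4:**
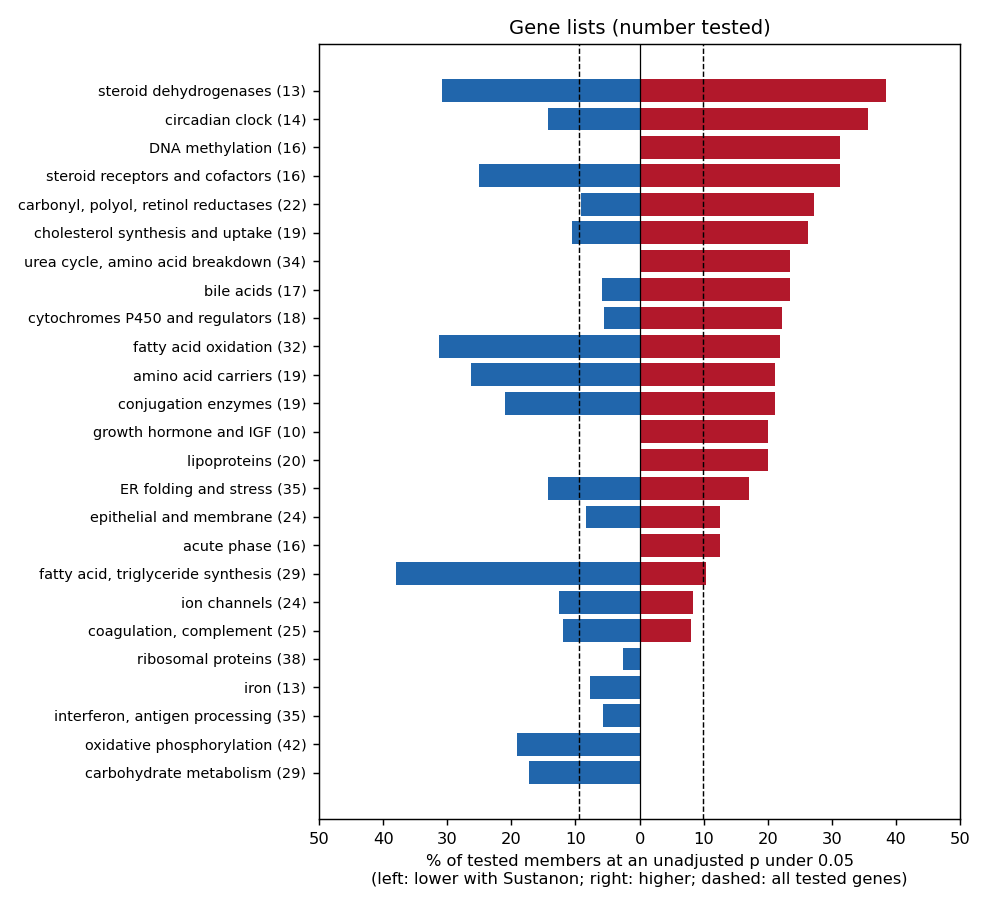
Share of tested members with an unadjusted p under 0.05 in each list of 10 or more tested genes (number in brackets). Red bars to the right are genes higher with Sustanon, blue bars to the left are genes lower, and dashed lines mark the shares over all tested genes, 9.85% and 9.45%. Fatty acid and triglyceride synthesis has 11 of 29 genes lower, and oxidative phosphorylation has 8 of 42 lower and 0 higher.

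None of the tested markers of other cell types was a DEG, and their summed levels overlapped between the treatments. All 15 tested markers of leukocytes and Kupffer cells, the liver's macrophages, had negative values (median -0.31), with 6 lower at an unadjusted p under 0.05 (9.45% of all tested genes). Their summed level ranged from 1394 to 1853 CPM with Sustanon, 1682 to 2490 CPM with Myodin and 1504 to 2040 CPM in untreated animals. Endothelial markers were negative in 5 of 6 genes and 3 were lower at an unadjusted p under 0.05, with sums of 352 to 483 CPM against 364 to 715 CPM. Red blood cell markers were negative in 4 of 4 tested genes (median -0.35), none at an unadjusted p under 0.05, with sums of 462 to 1899 CPM against 538 to 2354 CPM. Stellate and stromal markers were positive in 5 of 7 and 2 were higher by that p (9.85% of all tested genes), with sums of 282 to 427 CPM against 191 to 399 CPM. In bulk liver, fewer cells of a type and less RNA per cell cannot be told apart. The part of these markers in the DEGs was not tested, and of the listed markers that the files hold, none was at 0 in all 11 libraries.

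The question of whether the steroids differed alike in castrated boars and in sows was put to the interaction of treatment and kind of animal. By edgeR it was passed by 0 genes (smallest adjusted p = 0.378), with 585 of 8263 (7.08%) at an unadjusted p under 0.05, and DESeq2 gave 9. All 68 DEGs had the same sign in castrated boars and in sows, groups that also made up the comparison. Their median log2 fold change was 1.18 in castrated boars and 1.59 in sows for the higher genes, and -1.18 and -1.67 for the lower. Within sows, 3 against 3, 151 genes were DEGs, of which 57 were among the 68. This contrast came from a fit of all 11 libraries, grouped by treatment and kind of animal. Its estimate of spread therefore drew on both kinds and not on the sows alone. In the same fit the contrast of the 3 against 2 castrated boars gave 0 by edgeR (smallest adjusted p = 0.512), with 524 genes at an unadjusted p under 0.05. Among single genes, FKBP5 had values of 1.28 in castrated boars and 2.79 in sows, CYP2B6B 3.78 and 3.62, and SELENBP1 -1.66 and -1.67.

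Boars that had not been castrated did not enter the comparison, and 2 of them had been given Sustanon and 3 Myodin in the same way. There, 62 of the 68 DEGs (91.18%) had the same sign, against 60.67% of all tested genes. Without uncastrated boar Myodin 22 the shares were 76.47% (52 of 68) and 56.4%. The median log2 fold change of the higher DEGs was 0.58 in these boars, and that of the lower DEGs -0.61 (0.29 and -0.13 without Myodin 22). SULT1E1 was at 876 and 530 CPM in the Sustanon boars and at 289, 2049 and 670 CPM in the Myodin boars, which overlapped, and its fitted value of -0.50 became 0.56 without Myodin 23, the boar at 2049 CPM. CACNA1H (2.39), ASB4 (2.30), MAPK4 (1.87) and ACOT12 (1.40) had values above 1, and each stayed above 1 when any 1 of the 5 boars was left out. ENSSSCG00000050374 (1.345) and TET3 (1.04) were also above 1, but fell to 0.81 without Myodin 24 and to 0.65 without Myodin 22, respectively. ACAA2 was at 27.4 and 23.9 CPM in the Sustanon boars and at 841, 50.2 and 142 CPM in the Myodin boars, with no overlap, and its value of -3.72 became -1.89 without Myodin 22, the boar at 841 CPM. SELENBP1 moved from -1.62 to -0.57 without that boar. Values of LIPG (0.01), RTL4 (0.03), SLC7A8 (-0.15) and SLC1A4 (-0.20) were near 0, and each changed sign when single boars were left out. TINAG had 0 counts in both Sustanon boars. Whether the difference between the steroids itself depended on testes was tested over these 16 libraries by the interaction of treatment with testes, which 0 genes passed by edgeR. At an unadjusted p under 0.05 were 514 genes (6.22%), 22 of them among the 68 DEGs (smallest adjusted p = 0.517). The DEGs were chosen for a large difference in the animals without testes, which are part of this interaction. That choice favours a low p here and smaller values in the boars, so neither shows that the difference depended on testes.

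**Figure D5:**
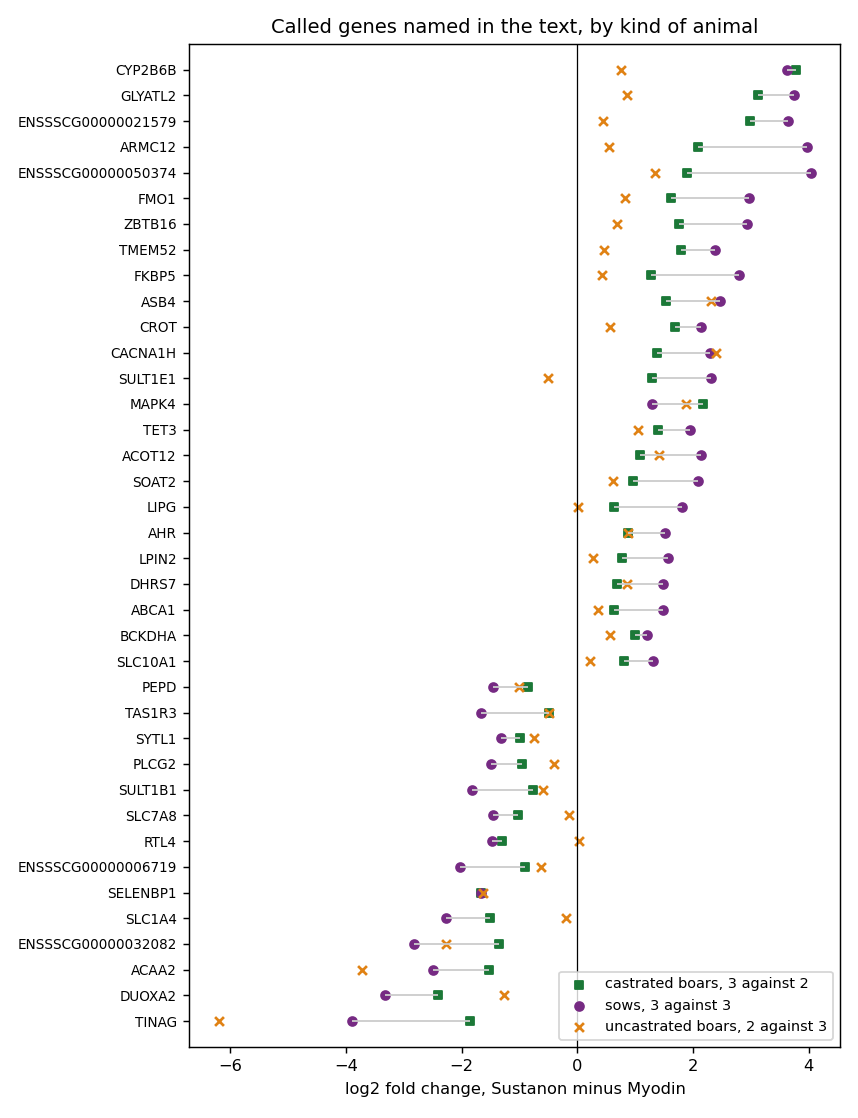
Log2 fold change of Sustanon against Myodin for the 38 named DEGs in castrated boars (green squares), sows (purple circles) and uncastrated boars (orange crosses). Squares and circles lie on the same side of 0 for every gene. In uncastrated boars SULT1E1 (-0.50) and RTL4 (0.03, near 0) lie on the other side, and both signs turned when single boars were left out. The cross of TINAG is a fitted value with 0 counts in both Sustanon boars and is no measured fold.

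Untreated castrated boars and sows gave the background level. For the 46 higher DEGs, the median difference in log2 CPM was 1.25 between Sustanon and untreated and -0.04 between Myodin and untreated. Without the 3 libraries whose Y-linked counts went against their labels the values were 1.38 and 0.06. For the 22 lower DEGs the medians were -1.14 and 0.27, and -1.14 and 0.18 without those libraries. The untreated median lay nearer to Myodin than to Sustanon in 41 of the 46 (43 without those libraries) and in 20 of the 22 (20), against 55.3% of all tested genes (56.6% without those libraries). It lay outside the interval between the Sustanon and Myodin medians in 21 of the 46 and in 4 of the 22, against 60.3% of all tested genes. Without those libraries it did so in 25 and in 6, against 64.3%. The DEGs were chosen for a wide interval between these medians, which lowers their share outside it in advance. The shares over all tested genes are therefore no like comparison for this count. The differences of Sustanon and of Myodin from untreated share the untreated animals. Among the 38 named DEGs, 14 of 24 on the higher side had all Sustanon animals above all untreated ones, and 8 of 14 on the lower side had all below. Over all tested genes the shares were 2.06% above and 1.28% below. Without those libraries the counts were 19 and 12, and the shares 4.33% and 3.88%. All Myodin animals stood clear of all untreated ones in 4 of the 38, with or without those libraries, against 1.8% of all tested genes (5.51% without them). These were SOAT2 and MAPK4 above, on the side of Sustanon, and LPIN2 below and SLC7A8 above, on the side away from it. Among the named DEGs, the study had picked MAPK4, CACNA1H, ASB4, GLYATL2 and TINAG from these same animals to mark testosterone treatment. Others were named for their large fold change between the steroids. The counts over named DEGs were therefore partly favoured in advance.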

How the data were processed

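Liver poly-A RNA was sequenced from stranded libraries (TruSeq stranded mRNA). Per the labels and the study's methods, the authors used docker4seq, with Skewer for trimming and STAR 2.5 for alignment to Sscrofa11.1; the counting tool is not given in the sources used here. The authors deposited raw read counts for 13463 genes, without normalization, and the same libraries as log2(TPM + 1), which was used only in an alternative. Of 3779 genes without a symbol in the files, 359 were named from a reference table; positions are those of RefSeq for Sscrofa11.1, matched by symbol.

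Counts of the 11 libraries were filtered with filterByExpr (groups: treatment), scaled by TMM and put to the two-sided quasi-likelihood test of edgeR 4.0.16 in R 4.3.3, with no covariate. CPM used TMM factors over all 24 libraries, and medians of log2 CPM an offset of 0.5. The quasi-likelihood test gives no SE, so SE was taken as the size of the log2 fold change over the square root of the F statistic. The 95% intervals used this SE and a t quantile. Each library is 1 animal. In simulated counts of this comparison, 200 of 8187 genes were given a log2 fold change of 2 or more in size. None of the 200 had a low mean CPM. Of those changed by 2, 98% were recovered, and 1.493% of all calls were wrong. No simulated animal stood apart as a whole, so the simulation does not give the sensitivity for smaller changes, low genes or deviant animals. Named genes were the top 12 DEGs by fold change in each direction (symbol, mean log2 CPM of at least 1), up to 2 DEGs without a symbol per direction, DEGs on the 38 gene lists and the study's panel. The comparison, lists and tests were chosen with earlier results of these data known. Alternatives were DESeq2 1.42.0, limma 3.58.1 on log2 TPM, RLE scaling, no filter, kind of animal as covariate, all 24 libraries in 1 fit, other thresholds and each library left out in turn. The interaction with testes, leaving out single uncastrated boars and leaving out untreated libraries were added after seeing the data. Some genes, among them a panel gene, are not reported here. No sequences are shown.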

Additional observations from a re-analysis of the deposited data

Results flagged for a closer look

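For the named genes, 141 groups of 5 or 6 libraries were checked for 1 library far from the others by Dixon's criterion, and 11 were marked; chance marks about 1 in 20. Of the 11, 5 were castrated boar Sustanon 3, which also lay nearest to the Myodin libraries on the first principal component. It had 26.68 CPM of PLCG2 (11.18 to 13.42 in the other 5 Sustanon animals), 60.3 CPM of ENSSSCG00000006719 (21.61 to 29.63), 319.7 CPM of BCKDHA (588.2 to 843.9), 255.7 CPM of LPIN2 (587.9 to 875.8) and 236.6 CPM of DHDH (300 to 335.7). In each of these it lay on the side of the Myodin group. Without this animal, 125 genes were DEGs in place of 68, and 67 of the 68 were among them.

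Sow Sustanon 4 stood apart with 219.4 CPM of SELENBP1 (70.31 to 84.96 in the others) and 483.2 CPM of DHRS4 (1635 to 2269). Sow Myodin 11 had 10.81 CPM of SYTL1 (7.208 to 8.082), and sow Myodin 12 had 0 counts of GLYATL2 (0.5673 to 0.7119 CPM in the others). Castrated boar untreated 15, whose Y-linked counts went against its label, had 0.2121 CPM of PLB1 (5.547 to 16.15) and 371.6 CPM of DHRS4 (486.6 to 521.1).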

How the results depend on the processing

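The count of 68 DEGs was 155 by DESeq2 (all 68 among them) and 137 without the fold threshold. At an unadjusted p under 0.05 with that threshold kept it was 204. In the fit of all 11 libraries grouped by treatment and kind of animal, it was 151 within sows and 0 within castrated boars. Leaving out 1 library gave 11 to 125 DEGs. Beside the 4 libraries named above, the count was 113 without castrated boar Sustanon 1, 32 without castrated boar Sustanon 2, 42 without sow Sustanon 5 and 36 without sow Sustanon 6; it lay within 1.5 times of 68 without the other 3. RLE scaling (70), no filter (76), kind of animal as a covariate (77), all 24 libraries in 1 fit (66) and limma on log2 TPM (48 and 61 with pseudocounts of 1 and 0.1) also lay within 1.5 times. List members among the DEGs numbered 24, and 42 by DESeq2, 0 within castrated boars in that grouped fit and 2 to 39 with 1 library left out. The interaction with kind of animal had 0 genes, 9 by DESeq2, and 0 to 3 with 1 library left out (2 without castrated boar Myodin 8 and 3 without castrated boar Myodin 9). The share of genes with the same sign in uncastrated boars was 91.18% for DEGs and 72.23% for genes at an unadjusted p under 0.05; for DEGs it was 76.47% to 92.65% with 1 boar left out, lowest without uncastrated boar Myodin 22. In castrated boars and sows, none of the 38 named DEGs changed sign under the alternatives that gave it a value (15 for ENSSSCG00000050374, 18 for DUOXA2 and RTL4, 20 for the others); 4 (DUOXA2, ZBTB16, CYP2B6B and SLC1A4) remained DEGs whichever library was left out. The cause of these shifts was not tested. No paired analysis was possible because the animals of the groups compared carry different numbers. Counts of low genes such as DUOX1 (0 to 6 with Sustanon) limit the precision of their values, and whether DUOX1 was tested depended on the filter.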

Other observations

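Of the 68 DEGs, 9 passed the test whichever of the 11 libraries was left out. Beside DUOXA2, ZBTB16, CYP2B6B and SLC1A4 these were MTSS1, CLUAP1, ZNRF1, PLAAT5 and ENSSSCG00000027232, named here after their values were seen. MTSS1, a scaffold between membranes and the actin skeleton, had a log2 fold change of 1.38 ± 0.16 (SE, edgeR). CLUAP1, a part of the transport machinery of cilia, had 1.43 ± 0.17, ZNRF1, a ubiquitin ligase, had 1.16 ± 0.14, and PLAAT5, a phospholipase and acyltransferase, had 3.32 ± 0.47. ENSSSCG00000027232 was lower, at -2.14 ± 0.32.

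Positions in RefSeq put 3 pairs of DEGs within 500 kb of each other, 6 of the 52 DEGs with a position (11.5%), against 7.33% of the other tested genes with a DEG that near. FKBP5 and ARMC12 lie 32.8 kb apart on chromosome 7 and were both higher with Sustanon. LIPG and ACAA2 lie 174 kb apart on chromosome 1 and TAS1R3 and TMEM52 352 kb apart on chromosome 6, and the members of each of these pairs differed in opposite directions. The pairs were chosen after their values were seen, and no test was made of them.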
